A study of Rattus norvegicus with 4 samples.

Results

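The nuclear genes for the subunits of the mitochondrial respiratory chain and ATP synthase were followed in NR8383, an established line of rat macrophages from the lung's air spaces. A gene was included when its current rat symbol marked it as a subunit of complex I (Nduf followed by a, b, c, s or v and a digit), complex II (Sdha to Sdhd), complex III (Uqcr), complex IV (Cox4 to Cox8) or complex V (Atp5) and a probe carried one of its RefSeq accessions. This gave 79 of the 16581 named genes on the array, read by 105 probes: 34 genes of complex I, 4 of complex II, 8 of complex III, 17 of complex IV and 16 of complex V. The rule also took in Atp5if1, an inhibitor of ATP synthase rather than a subunit of it, and Cox6c-ps1, a transcribed pseudogene. The 4 samples formed 1 group, all given NRCWE055 for 4 h at 11 cm2 per cm2 (this material is a single-walled carbon nanotube in its pristine form), with cells described as being after 20 passages. Unexposed cells were not analysed here, so no value is a response to the nanotubes. By the design text these are biological replicates of 1 cell line, and where replicates 2, 3 and 4 have a source name whose nanotube number differs from the title, the title was followed.

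Complex I (NADH dehydrogenase) and complex II (succinate dehydrogenase) pass electrons to ubiquinone, complex III (cytochrome bc1) passes them on to cytochrome c, and complex IV (cytochrome c oxidase) gives them to oxygen. The proton gradient built by complexes I, III and IV drives ATP synthase, complex V. All but complex II join nuclear-encoded subunits with subunits encoded in mitochondrial DNA, and several complex IV subunits exist as a widely expressed form and a form typical of muscle, lung or testis. In macrophages the chain also produces reactive oxygen species, and succinate oxidation by complex II is known as a step in inflammatory activation.

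Subunit genes with a probe were detected almost throughout. On all 4 arrays, 76 of the 79 genes (96.2%) were well above background, a flag set by the scanner software, where 52.4% of all named genes were. In complexes II, III and V every gene with a probe was detected, 4 of 4, 8 of 8 and 16 of 16. Another 31 protein-coding genes under the naming rule had no matched probe and could not be read. In complex I 32 of 34 genes were detected and in complex IV 16 of 17. Each array detected the same number of these genes, 76. No spot was marked as saturated on any array.

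The 3 genes without a detected probe were Ndufs4, Ndufa4l2 and Cox8c. Ndufs4 encodes an accessory subunit of complex I whose loss causes a severe mitochondrial disease. Its only probe had processed signals of 15.8, 14.2, 13.0 and 8.86 on replicates 1 to 4, where the lowest signal of any detected probe was between 15.6 and 15.9. It lay at 1.01 times that edge on replicate 1 and at 0.56 times on replicate 4, and with a looser flag it was above background on all 4 arrays. Ndufa4l2, the hypoxia-induced relative of Ndufa4, had processed signals from 3.64 to 4.44 over its pair of probes and the 4 arrays. Cox8c, a testis form of subunit 8, was at 3.34, 3.18, 3.80 and 3.36. Both stayed under background with the looser flag too.

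Levels below are log2 processed signals relative to each array's 75th percentile (taken over probes that every array detected), and means carry ± the SD over the 4 arrays (n = 4). They belong to the probes of 1 gene and are not compared between genes. The 75th percentile signal was 1756 on replicate 1, 2631 on replicate 2, 2861 on replicate 3 and 1873 on replicate 4, so replicates 1 and 4 were the dimmer arrays. Macrophage markers were detected for 6 of 6 measured members, with Cd68 at 3.07 ± 0.10, and lung epithelium markers for 0 of 3. The share over all named genes was 52.4%. The precision of every level is limited by the number of arrays.

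Complex II carries both a citric acid cycle step and an entry to the chain. Sdha, the flavoprotein that oxidises succinate, was at 1.62, 1.84, 1.86 and 1.82 on replicates 1 to 4 (1.78 ± 0.11). Replicate 1 was the low array, and the other three lay close together. Sdhb, the iron-sulphur subunit, was at 2.05, 2.03, 2.11 and 1.91 (2.03 ± 0.08). Sdhc and Sdhd encode the membrane anchors. Sdhc was at 1.191, 1.280, 1.096 and 1.349 (1.23 ± 0.11), and Sdhd at 2.68, 2.92, 2.81 and 2.83 (2.81 ± 0.10). Replicate 1 was lowest for Sdha and Sdhd but not for Sdhb and Sdhc.

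The detected complex I genes that carry the path of electrons had SDs from 0.03 to 0.16. Ndufv1, which binds NADH and the flavin, was at 4.08, 3.80, 3.89 and 3.69 (3.86 ± 0.16), the widest spread among the 7 detected members of complex I fixed for description. Ndufv2, its iron-sulphur partner, was at 3.14, 3.22, 3.26 and 3.19 (3.20 ± 0.05). Replicate 1 was highest for the former and lowest for the latter. Ndufs1, the largest iron-sulphur subunit, was at 0.28, 0.36, 0.30 and 0.28 (0.31 ± 0.03). These arrays lay within 0.07 of one another. Ndufs3, of the arm that reaches into the matrix, was at 2.50 ± 0.05, Ndufs7, which holds the last iron-sulphur cluster, at 2.68 ± 0.05, and Ndufs8 at 1.66 ± 0.11.

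The accessory subunits of complex I, which surround that path, mostly varied little. For the 24 detected complex I members outside the fixed members and the isoform pairs, the SD ran from 0.017 to 0.19 with a median of 0.045. At the ends of that range, named after their values were seen, were Ndufa7 and Ndufb2. Ndufa7 was at 3.86, 3.87, 3.85 and 3.83, so its arrays could hardly be told apart. Ndufb2 was at 3.92, 3.48, 3.56 and 3.62, with replicate 1 above the others. Ndufa10 (-5.90 ± 0.15) and its near copy Ndufa10l1 (2.22 ± 0.03) have shared a name in the past, so which of them each probe reads is uncertain.

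Complex III genes were detected with larger differences between probes of 1 gene than between arrays. Uqcrfs1, the Rieske iron-sulphur protein, was at 3.39, 3.46, 3.51 and 3.54 (3.47 ± 0.07). The core proteins Uqcrc1 and Uqcrc2 moved in opposite order over the arrays. Uqcrc1 was at 3.00, 2.76, 2.88 and 2.69 (2.84 ± 0.14) and Uqcrc2 at 0.81, 1.06, 0.91 and 1.12 (0.97 ± 0.14). Uqcrq, a small subunit near ubiquinone, was at 0.76, 0.17, 0.23 and 0.28 (0.36 ± 0.27), with replicate 1 apart from the rest. Its pair of probes lay 9.54 apart: the brighter was at 5.13 ± 0.14 and the dimmer at -4.41 ± 0.42. The dimmer probe was at -3.79 on replicate 1 and between -4.69 and -4.57 on the others, so much of the gene's spread came from it.

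Complex IV had the largest median SD of the complexes, 0.12, and 7 of its 16 detected genes had a level at or under 0. The SDs of these 7 ran from 0.04 (Cox6a2) to 0.33 (Cox6b2). Subunit genes at or under 0 had a median SD of 0.20, and those above 0 one of 0.061. Over all detected genes, of which 72.9% lay at or under 0, the median SD was 0.093. The part of level in the spread of complex IV was not tested. Cox4i1, a core structural subunit, was at 6.10, 5.90, 5.80 and 5.99 (5.95 ± 0.13). Cox5a was at 4.48, 4.33, 4.33 and 4.56 (4.43 ± 0.11) and Cox5b, which binds zinc, at 4.33, 4.05, 4.07 and 4.19 (4.16 ± 0.13). All of these were higher on replicates 1 and 4 than on replicates 2 and 3. Cox6c, another nuclear subunit, was at 3.15, 3.08, 3.07 and 3.08 (3.09 ± 0.04) and did not keep that order.

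Complex V genes were detected from the catalytic head to the membrane rotor. Atp5f1a, the alpha subunit of the head, was at 5.99, 5.74, 5.62 and 5.91 (5.82 ± 0.16), with replicates 1 and 4 the higher. Atp5f1b, the catalytic beta subunit, was at 3.48, 3.48, 3.50 and 3.37 (3.46 ± 0.06). In beta, replicate 4 was the low array instead. Of the central stalk, Atp5f1c was at 2.43 ± 0.06, Atp5f1d at 4.12 ± 0.05 and Atp5f1e at 3.87 ± 0.12. Atp5po, which joins head and peripheral stalk, was at 4.90 ± 0.09. The inhibitor Atp5if1, which stops the enzyme from running backwards, was at 3.45, 3.46, 3.49 and 3.43 (3.46 ± 0.03), closer together than any other fixed core member. Atp5mc1 and Atp5mc2 encode the same mature rotor protein, subunit c. Atp5mc1 was at 5.982, 5.988, 5.791 and 5.9997, with replicate 3 low, and Atp5mc2 at 4.88, 4.66, 4.65 and 4.81, with replicates 2 and 3 low. No probe was matched to Atp5mc3, the other gene for that protein.

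**Figure D1:**
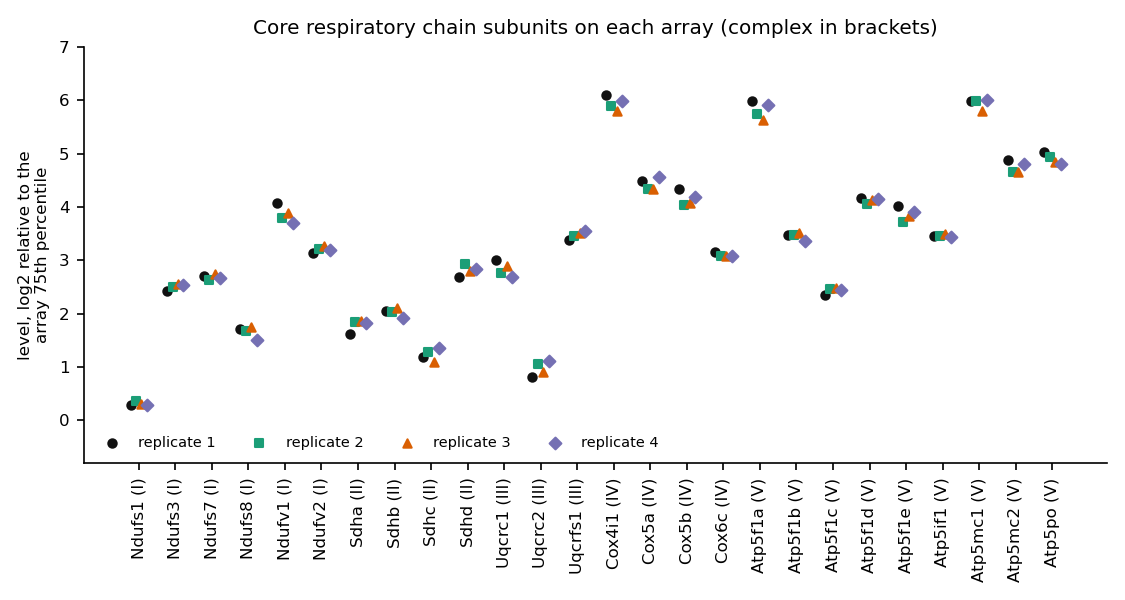
Level of 26 detected core members (horizontal axis, complex in brackets) on each array, as log2 relative to the array's 75th percentile (vertical axis); each marker shape is 1 replicate. The arrays of a gene lie within 0.39 of one another, and heights are not to be compared between genes because each probe has its own response.

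Forms of complex IV subunits known from other tissues were measured beside their widely expressed partners. Of 16 isoform genes listed, 14 had a probe and 12 were detected on all arrays, where 52.4% of all named genes were. No probe was matched to Cox7a1 or Cox7b2. Cox4i2, the form linked to lung and to low oxygen, was at -1.41, -1.97, -1.77 and -1.53 (-1.67 ± 0.25), with both dimmer arrays above both brighter ones. Its processed signal was 659, 671, 841 and 648. Cox6a2, the form of heart and skeletal muscle, was at -1.86, -1.79, -1.78 and -1.83 (-1.81 ± 0.04). Its pair of probes lay only 0.06 apart, the closest of the 19 subunit genes with several detected probes. The partner Cox6a1 was at 6.54, 6.33, 6.37 and 6.68 (6.48 ± 0.16).

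Subunit 6b differed in how closely its forms repeated over arrays. Cox6b2, known from testis, was at 0.20, -0.49, -0.51 and -0.27 (-0.27 ± 0.33), the largest SD of the 76 genes. Replicate 1 was the high array, and both dimmer arrays lay above both brighter ones. Cox6b1, the widely expressed form, was at -1.51, -1.46, -1.45 and -1.58 (-1.50 ± 0.06). In subunit 8, Cox8a was at 5.39, 5.39, 5.26 and 5.46 (5.38 ± 0.09). Cox8b, the form of rodent heart and muscle, was at -5.962, -5.781, -6.284 and -5.998 (-6.01 ± 0.21), with processed signals from 28.2 to 47.9 against a detection edge near 15.6. Cox8c was not detected, as given above.

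For subunit 7, Cox7a2 was at 3.97 ± 0.04 and Cox7b at 1.75 ± 0.08. Cox7a2l, which joins complexes III and IV into supercomplexes, was at 3.62, 3.73, 3.69 and 3.61 (3.66 ± 0.05). Ndufa4, named for complex I but found in complex IV, was at 3.40, 3.44, 3.43 and 3.45 (3.43 ± 0.02), while both probes of its relative Ndufa4l2 were under background.

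Markers of the tissues in which these forms are known were detected in part, where 52.4% of all named genes were detected on all arrays. Of 8 heart and skeletal muscle markers 3 were detected, Actc1 at -0.37, -1.02, -1.05 and -0.54 (-0.74 ± 0.34), Tnnt2 at -2.51 ± 0.06 and Mb at -3.87 ± 0.24. The muscle genes Myh6, Myh7, Acta1, Tnni3 and Ckm were not detected on all arrays, Tnni3 and Ckm being above background on 1 array each. Of 6 testis germ cell markers 0 were detected on all arrays, with Prm1 above background on 3 arrays and Prm2 on 2. With Cidea at -0.70 ± 0.04 and Ucp1 undetected, 1 of 2 brown fat markers was detected. Higher values on both replicates 1 and 4 were found in 5 of the 12 detected isoform genes (Cox4i1, Cox4i2, Cox6a1, Cox6b2 and Cox8a), in 2 of the 3 detected muscle markers (Actc1 and Mb) and in 21.3% of all detected genes. Of the isoform genes with higher values, Cox4i1, Cox6a1 and Cox8a lay above a level of 4. There 69.6% of all detected genes had this order, which depended on the scaling, as given below. Lower values on both replicates 1 and 4 were found in 3 isoform genes (Cox6a2, Cox6b1 and Cox7a2l), in 0 of the muscle markers and in 19.9% of all detected genes. The remaining 4 isoform genes, Cox8b among them, had neither order. The muscle forms Cox6a2 and Cox8b thus did not share the order of Actc1 and Mb. The part of such markers' signal in the isoform values was not tested.

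**Figure D2:**
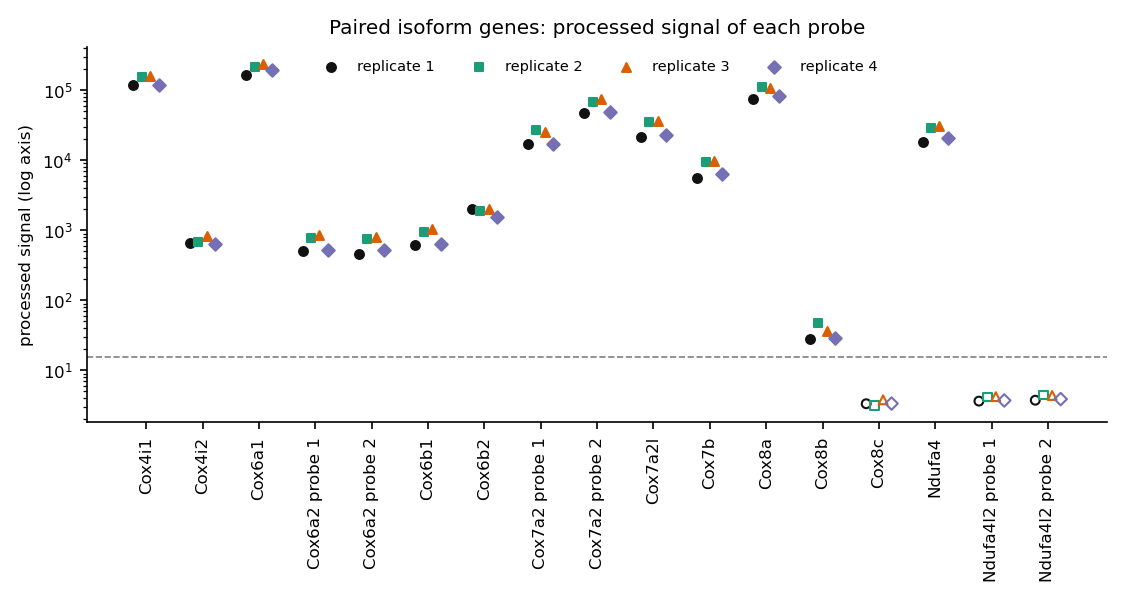
Processed signal (vertical axis, log scale) of each probe of the 14 measured isoform genes (horizontal axis) on each array; open markers are probes under the detection flag, and the dashed line is the lowest signal of any detected probe, 15.6. Cox8c and Ndufa4l2 lie under the line, and Cox8b lies just over it on all 4 arrays.

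Subunit genes repeated closely over the 4 cultures. Their median SD was 0.066 (log2), or 1.05-fold, against 0.093 over all 8685 detected genes. The 2351 detected genes above the 75th percentile (a level over 0) had a median SD of 0.066. For the 67 subunit genes above 0 it was 0.061, near that of genes in their range. By complex the median SD was 0.051 in complex I, 0.10 in complex II, 0.10 in complex III, 0.12 in complex IV and 0.075 in complex V. Levels were not matched between complexes, and complex IV holds 7 of the 9 subunit genes at or under 0. The SD was under the median of all detected genes in 26 of 32 genes of complex I and in 7 of 16 of complex IV, where that median leaves 50.0% of all detected genes on each side. No test between complexes was made, since genes are not replicates.

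No subunit gene spanned over 2-fold between its highest and lowest array, 0 of 76, where 1.11% of all detected genes did. Such a span was rare among genes above a level of 0 in general, with 4 of all 2351 and 0 of 67 subunit genes. The count of 0 therefore does not set the subunit genes apart. A span over 0.5 on the log2 scale was found in 4 of 76 subunit genes, against 11.2% of all detected genes, whatever their level. The 4 genes were Cox6b2 (0.71), Uqcrq (0.59), Cox4i2 (0.56) and Cox8b (0.50). The 5 largest SDs belonged to these and to the pseudogene Cox6c-ps1, at -3.72, -3.94, -4.20 and -4.12 (-3.99 ± 0.21). Only complexes III and IV are represented among them.

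**Figure D3:**
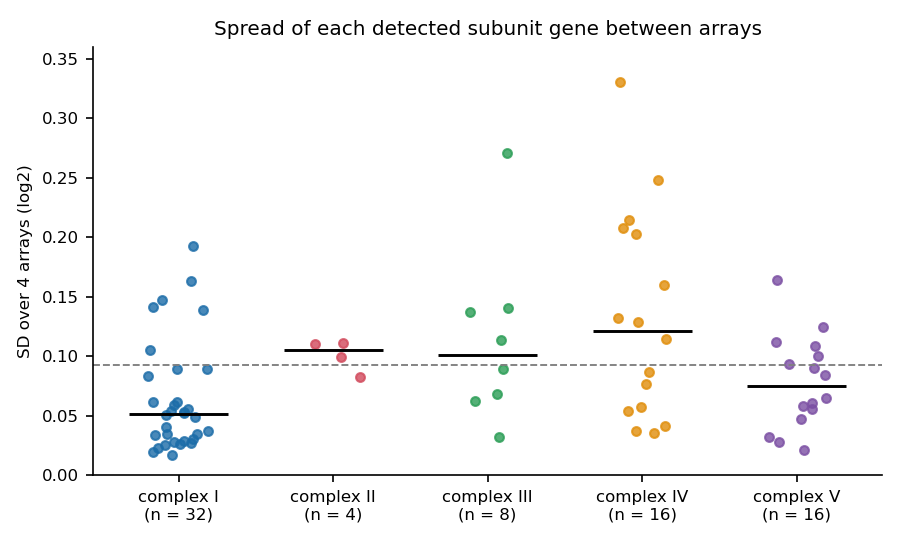
SD over 4 arrays (vertical axis, log2 scale) of each detected subunit gene, by complex (horizontal axis); points are genes, black bars the median of a complex and the dashed line the median of all detected genes, 0.093. Complex I lies lowest with a median of 0.051, and complex IV holds the highest point, Cox6b2 at 0.33. Levels are not matched between complexes.

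A level at or under 0, the 75th percentile, was read for 9 of the 76 subunit genes (11.8%) and for 72.9% of all detected genes. Of the 9 genes 7 were named for complex IV: Cox4i2, Cox6a2, Cox6b1, Cox6b2, Cox6c-ps1, Cox7c and Cox8b. The others were Ndufa10 and Uqcrb. Their median SD was 0.20, against 0.061 for the 67 genes above 0 and 0.093 over all detected genes. Cox7c, a widely expressed subunit, was at -4.98, -4.96, -5.31 and -4.84 (-5.02 ± 0.20) from 1 probe. Uqcrb, the ubiquinone-binding protein of complex III, had 1 probe at 1.18 ± 0.10 and another at -5.84 ± 0.14. A low level of a probe therefore need not be a low level of the gene. Members were named here after their values were seen.

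Several probes of 1 gene often differed in level. In the 19 genes with more than 1 detected probe, the median gap between highest and lowest probe was 1.82 (log2). Complex III had the 3 widest, Uqcrq (9.54), Uqcrb (7.02) and Uqcr11 (4.43), and Cox6a2 (0.06) and Ndufa13 (0.23) had the narrowest. The probes of Uqcr11 also differed over arrays, since the brighter was at 4.64, 4.21, 4.15 and 4.41 and the dimmer at -0.14, -0.07, -0.01 and -0.08. Pseudogene copies are common in this family: 37 of the 78 genes other than Cox6c-ps1 have at least 1 named pseudogene copy in the rat gene table, with 8 for Atp5mg and 7 for Ndufb4. Whether probes also read transcripts of such copies was not tested.

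Subunit probes with replicate spots allowed a test of arrays against spot noise for 2 of the 105 probes. The Atp5mc2 probe printed 10 times was at 3.80, 3.69, 3.69 and 3.83 on replicates 1 to 4, a span of 0.15, and differed between arrays (limma moderated F test with Benjamini-Hochberg adjustment, adjusted p = 3.069e-05). With normexp correction of the median signals the adjusted p was 0.3229, and over the other alternatives run it lay between 2.65e-05 and 0.0268. The Atp5mf probe printed 2 times had an adjusted p of 0.9873 in the same limma test, with a span of 0.05. Of all 1742 probes tested, 43.3% differed, 65.7% of those printed 10 times and 10.4% of those printed 2 times. A call was thus the more frequent outcome for probes like that of Atp5mc2 and an infrequent one for probes like that of Atp5mf. The test compares arrays, not conditions, and culture, labelling and array cannot be told apart.

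Bright subunit genes had an order over the arrays that bright genes in general had too. Among the 18 subunit genes above a level of 4, 14 (77.8%) were higher on both dimmer arrays than on both brighter ones and 0 were lower, with a median difference of 0.10. For all 224 detected genes above 4, 69.6% were higher in this way and the median difference was 0.13, and over all detected genes the share was 21.3%. The level of 4 was chosen after the values were seen. Of these genes Cox6a1 differed by 0.26, Atp5f1a by 0.27 and Cox4i1 by 0.20, while Ndufb8, an accessory subunit of complex I, differed by 0.10. Between 0 and 4, 7 of 49 subunit genes were higher and 13 lower on both dimmer arrays, with a median difference of -0.02. With quantile normalization the median of the 18 genes turned to -0.07 and 3 of the 14 kept the order, while 27.2% of all genes above 4 had it, so the direction depends on the scaling for both. With the 75th percentile of all probes 6 of the 14 kept it (53.6% of all genes above 4 had it), and with the median of detected probes 7 (58.9%). Across the 67 subunit genes above 0, Spearman's rho between level and this difference was 0.529, and across all 2351 detected genes above 0 it was 0.253. Over the whole range of levels it was 0.371 for the 76 genes and -0.115 for all 8685. Genes on these arrays share scaling and labelling and are not independent.

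**Figure D4:**
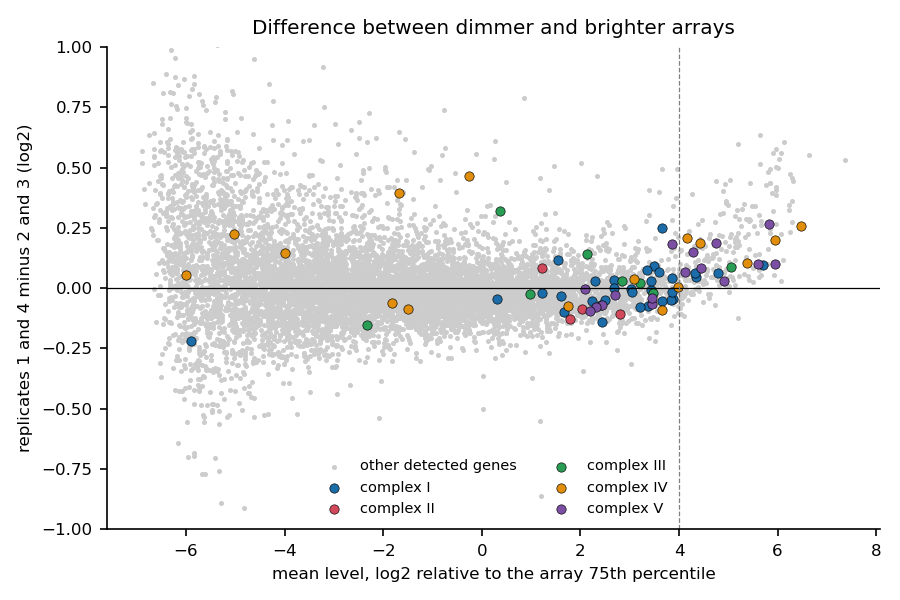
Mean level of a gene (horizontal axis, log2 relative to the array's 75th percentile) against the mean of replicates 1 and 4 minus that of replicates 2 and 3 (vertical axis, log2); grey points are other detected genes, of which 13 lie outside the plotted range, and coloured points are subunit genes by complex. To the right of the dashed line at 4, subunit genes lie above 0 along with most other genes.

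Over all 76 genes the median difference between dimmer and brighter arrays was 0.02, against -0.002 for all detected genes, and it changed sign under 3 of the alternatives. By complex it was -0.01 in complex I, -0.10 in complex II, 0.02 in complex III, 0.13 in complex IV and 0.05 in complex V. On both dimmer arrays, complex I had 6 of 32 genes higher and 7 lower, complex II 0 of 4 and 1, complex III 3 of 8 and 1, complex IV 7 of 16 and 3, and complex V 7 of 16 and 5, where 21.3% and 19.9% of all detected genes were higher and lower. These shares were not matched for level. Above a level of 4, 69.6% of all detected genes were higher on both dimmer arrays and 4.9% lower. Most of the higher genes of complexes IV and V lay above that level. The values by complex were computed under the main scaling only.

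The machinery around the chain was largely detected, where 52.4% of all named genes were detected on all arrays. Of 14 measured assembly factors of complex I 14 were detected, with Ndufaf1 at -3.99 ± 0.08. For complexes II to V the count was 25 of 27, with Sdhaf1, which inserts iron-sulphur clusters into complex II, at -1.09 ± 0.06, and Cox19 above background on 2 arrays only. Cox20 was not detected on any array. Ubiquinone synthesis and electron entry genes were detected in 15 of 15, with Coq2 at -0.58 ± 0.11, and citric acid cycle genes in 12 of 12, with the citrate synthase gene Cs at 2.01 ± 0.02. Subunits and carriers outside the naming rule were detected in 4 of 4, with cytochrome c1 (Cyc1) at 4.59 ± 0.10. No probe was matched to the 13 genes of mitochondrial DNA in that list.

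Regulators of these genes were detected in 11 of 12, where 52.4% of all named genes were. Nrf1, a factor that binds many respiratory promoters, was at -2.28, -2.02, -2.12 and -2.31 (-2.18 ± 0.14). The coactivator gene Ppargc1a was not above background on any array. Its relatives Ppargc1b and Pprc1 were at -4.24 ± 0.06 and -0.51 ± 0.04, and Tfam, needed for transcription of mitochondrial DNA, at -0.62 ± 0.14. Among carriers of the inner membrane 3 of 5 were detected, a share near that of all named genes, with Ucp2 at 1.79 ± 0.04. No array detected Ucp1 or Ucp3, and with the looser flag Ucp3 was above background on all 4 and Ucp1 was not. These genes beyond the first of each list were named after their values were seen.

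Promoters of the subunit genes held matches to motifs known from respiratory genes more often than promoters in general. RefSeq promoter windows (assembly GRCr8, 250 bases before to 50 after the gene start) were found for 69 of the 79 genes, and both strands were searched. The NRF1 motif (GCGCA, any base, then GCGC) was in 17.4% of these windows, in 10.5% of those of named genes detected on all arrays and in 4.3% of all 33469 windows. For the ETS motif CCGGAAG the shares were 30.4%, 19.8% and 8.7%, and for the YY1 motif AAGATGGCG 13.0%, 3.9% and 1.7%. The GC box GGGCGG did not follow this order, at 42.0%, 61.1% and 33.1%. At least 1 of the NRF1, ETS and YY1 motifs was in 37 of 69 windows (53.6%), against 30.2% for detected named genes. A match is a description of the letters and no evidence of binding.

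By complex the counts were small and were not tested. In complex I 6 of 31 windows held the NRF1 motif and 6 the YY1 motif, and in complex V 4 of 15 and 2. Neither was in any of the 13 windows of complex IV, of which 4 held the ETS motif. Of the YY1 matches, 9 of 9 read along the gene, and 8 lay after or across the gene start, where 68.3% and 59.4% of the matches in all windows did.

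**Figure D5:**
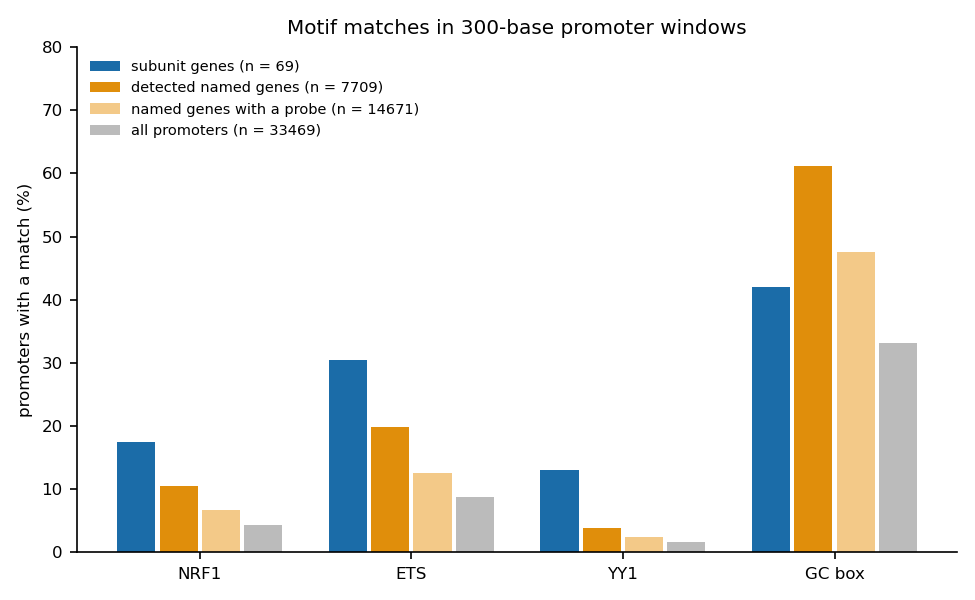
Share of 300-base promoter windows (vertical axis, percent) with at least 1 match to each motif (horizontal axis) for subunit genes (n = 69), named genes detected on all arrays (n = 7709), named genes with a probe (n = 14671) and all windows (n = 33469). The subunit genes have the highest share for NRF1, ETS and YY1 (17.4%, 30.4% and 13.0%) but not for the GC box.

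The upstream part of 5 windows is printed to show what the matches look like, 1 of each of complexes I to III, then Cox4i1 and the undetected Cox8c. Each runs 5′ to 3′ along the gene for the 250 bases before its start (RefSeq, GRCr8), with matches to the 4 motifs in capitals.
Sdha, chr1:30764303-30764552, plus strand: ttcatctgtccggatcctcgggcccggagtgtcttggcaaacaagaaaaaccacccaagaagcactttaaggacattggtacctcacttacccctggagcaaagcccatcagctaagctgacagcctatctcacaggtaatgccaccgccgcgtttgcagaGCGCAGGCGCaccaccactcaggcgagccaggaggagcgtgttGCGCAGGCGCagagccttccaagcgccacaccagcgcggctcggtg
Ndufs8, chr1:210573699-210573948, minus strand: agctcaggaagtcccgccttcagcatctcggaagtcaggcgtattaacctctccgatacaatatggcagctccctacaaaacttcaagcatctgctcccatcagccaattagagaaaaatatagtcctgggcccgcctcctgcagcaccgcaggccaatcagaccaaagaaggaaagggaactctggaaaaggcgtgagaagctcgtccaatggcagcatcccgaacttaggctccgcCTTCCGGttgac
Uqcrc1, chr8:118467973-118468222, plus strand: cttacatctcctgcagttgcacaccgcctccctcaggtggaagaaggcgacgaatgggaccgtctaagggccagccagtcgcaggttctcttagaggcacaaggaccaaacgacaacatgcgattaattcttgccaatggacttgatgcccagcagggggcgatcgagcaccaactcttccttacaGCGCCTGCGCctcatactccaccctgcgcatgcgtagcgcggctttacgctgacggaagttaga
Cox4i1, chr19:65630133-65630382, plus strand: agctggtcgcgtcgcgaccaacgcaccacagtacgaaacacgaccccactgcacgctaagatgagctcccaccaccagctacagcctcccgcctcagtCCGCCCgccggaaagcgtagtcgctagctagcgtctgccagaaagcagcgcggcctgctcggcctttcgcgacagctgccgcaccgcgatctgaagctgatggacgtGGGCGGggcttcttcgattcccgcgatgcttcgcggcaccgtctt
Cox8c, chr6:127793129-127793378, plus strand: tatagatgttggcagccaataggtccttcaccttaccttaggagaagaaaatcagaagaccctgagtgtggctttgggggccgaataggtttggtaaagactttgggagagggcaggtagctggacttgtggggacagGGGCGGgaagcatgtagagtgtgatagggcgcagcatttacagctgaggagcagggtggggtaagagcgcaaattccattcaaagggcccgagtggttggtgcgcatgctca
In Sdha the capitals are a pair of NRF1 matches, starting 89 and 46 bases before the gene start, and 1 more NRF1 match lies in the unprinted part. Ndufs8 has 1 ETS match, 12 bases before the start and on the opposite strand. Uqcrc1 has 1 NRF1 match, 64 bases before the start, and its YY1 match lies in the part after the start, which is not printed. In Cox4i1 both runs of capitals are GC boxes, at 152 and 45 bases, and its 2 ETS matches are in the unprinted part. The Cox8c window has 1 GC box, 112 bases before the start, and none of the other motifs. It has 10 CpG dinucleotides in its 300 bases, against 38 for Cox4i1 and a median of 20 over the 69 windows. Detected genes had such windows too: Cox6b2 has 10 CpG, and Cox8b and Cox6a2 have 5 each. Cox6a2 holds none of the 4 motifs.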

How the data were processed

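RNA of 4 exposed NR8383 cultures was labelled with Cy3 and hybridised to Agilent arrays of 1 colour, each sample to its own array, all on 1 slide and in 1 scan per the file headers, so neither could be tested as a batch. The deposited processed signal is an intensity from Agilent Feature Extraction 11.0.1.1 (version per the submitters' processing notes), corrected for background and spatial trend array by array per the file headers, and not normalized between arrays. Control spots and outlier spots (427 to 714 per array) were dropped, log2 signals were averaged over the spots of a probe, and each array was scaled to the 75th percentile of the 17807 probes that every array detected, since 40.8% to 43.7% of probes were detected per array. A probe was detected when the majority of its remaining spots carried the flag for signal well above background, and a gene's level is the mean of its detected probes. Probes were named through RefSeq accessions (21109 of 45598 probes). Spread is the SD over arrays. With 1 group there was no test of conditions. Replicate spots were compared by limma (3.58.1, under R 4.3.3), checked on simulated data. There a change of 0.5 on 1 array was recovered in 99 of 100 probes printed 10 times and 81 of 100 printed 2 times. Simulated arrays otherwise differed by spot noise only. Changes as small as the spans of the subunit probes, 0.15 and 0.05, were not simulated. Figures and summaries used Python 3.11.15. Normexp correction (offset 50) started from median spot signals. Other alternatives were 3 other scalings, keeping outlier spots, a less strict flag, a minimum of 3 arrays for detection, the brightest probe per gene, dim probes kept, and each replicate left out in turn. Named were fixed core members, isoform pairs, undetected members, the 5 largest SDs and members past the spot test; others are said to be named afterwards. The values of 1 core member of complex I are not reported here. Members and lists were chosen with earlier results of these data known.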

Additional observations from a re-analysis of the deposited data

Results flagged for a closer look

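In 81 series of 4 values, the levels of the 76 detected subunit genes and the median deviations of the 5 complexes, 1 array was set against the other 3 by the gap to its neighbour as a share of the whole range (Dixon's ratio at its 95% critical value). Of these, 5 passed, where chance alone gives about 4.05. Cox6c stood out by its ratio of 0.941, with replicate 1 at 3.15 against 3.07 to 3.08 elsewhere. Atp5mc1 had a ratio of 0.917, with replicate 3 at 5.791 against 5.982 to 5.9997. Sdha had a ratio of 0.841, with replicate 1 at 1.62 against 1.82 to 1.86. Atp5f1b had a ratio of 0.834, with replicate 4 at 3.37 against 3.48 to 3.50. The median deviation of complex II had a ratio of 0.834 as well, with replicate 1 at -0.08 against 0.03 to 0.05, and rests on 4 genes, Sdha among them.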

How the results depend on the processing

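The count of detected subunit genes stayed between 76 and 77 under every detection alternative, and Ndufs4, gained with the looser flag, was the only change. No subunit gene spanned over 2-fold under any alternative, and the median SD stayed between 0.053 (without replicate 1) and 0.080 (brightest probe). The median difference between dimmer and brighter arrays, 0.02 as reported, was reversed to -0.0067 with normexp correction, -0.0106 with the 75th percentile of all probes and -0.0556 with quantile normalization; it was 0.0025 with the median of detected probes and between 0.0009 and 0.0254 without 1 replicate. The cause was not tested. The median level of the named members, 2.96, moved to 6.57 and 5.39 with the 75th percentile of all probes and the median of detected probes, by construction, to 3.32 with the brightest probe, and lay between 2.97 and 3.04 without 1 replicate. With normexp correction 0 of the subunit probes differed over replicate spots, and over all probes limma made 219 calls in place of 755. Without 1 replicate the count for subunit probes stayed at 1, with 523 to 699 calls over all probes. With the looser flag Ucp3 and Cox19 were detected on all arrays, and muscle markers went from 3 to 5 detected, and testis markers from 0 to 2 with it and to 1 with detection on at least 3 arrays; without 1 replicate testis markers ranged from 0 to 1. No paired analysis was possible because the samples form 1 group. Signal over background limits what an undetected probe can show, and 4 arrays limit every SD.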
